A study of Mus musculus with 59 samples.

Results

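Transcript levels late in the light phase, at zeitgeber time 10 (ZT10), were compared with those late in the dark phase, at ZT22, in wild-type C57BL/6J mice, adults of both sexes. The tissue was a homogenate of the medial prefrontal cortex. The comparison took every library with either time in its title, 9 at ZT10 (5 male and 4 female) and 10 at ZT22 (5 male and 5 female), which is 19 of the 59 libraries of the series. C57BL/6J is an inbred strain, and all libraries shared this genotype, with no treatment named in the labels. The other 40 libraries, from ZT2, ZT6, ZT14 and ZT18, served to place the ZT10 and ZT22 values in the day. They also entered a fit of all 59 libraries, given where it is named, in which they share the estimates of the spread and the run effects. Zeitgeber time counts hours from lights on by convention, and neither the light schedule nor the age in weeks is in the labels. Nothing there says that the libraries are separate animals. Numbers after the sex letter in the titles repeat within a sex and time, and whether a repeated number names the same mouse is not given, so every p-value here rests on the spread among libraries, which may be partly technical.

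The comparison addresses which transcripts differ between times 12 h apart, near the end of the rest phase and near the end of the active phase of a nocturnal animal. In the molecular clock, CLOCK and BMAL1 drive the Per and Cry repressors and the REV-ERB receptors Nr1d1 and Nr1d2, which in turn repress their own activators. Independently of that loop, neurons transcribe immediate early genes such as Arc, Jun and Egr1 within minutes of synaptic activity. Chaperones of the endoplasmic reticulum (ER), the compartment in which secreted and membrane proteins fold, are induced when its folding load rises, through the factors ATF6 and XBP1 acting at promoter elements.

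The table held between 6472181 and 11458211 reads per library, but 6 noncoding genes, led by Gm42418, took from 66.7% to 91.2% of them, which left 1009789 to 2544097 reads for all other genes. Neither the reads of the table (exact permutation test, two-sided p = 0.489) nor the noncoding share (exact p = 0.876) differed detectably between the times. The first principal component held 33.2% of the variance and did not separate the times either (exact p = 0.833). Of 5 glutamatergic neuron markers none had an unadjusted p under 0.05, and their mean log2 level lay between 10.47 and 11.58 in the ZT10 libraries and between 10.59 and 11.49 in the ZT22 libraries. No marker of endothelial, blood, or olfactory bulb and ependymal cells was among the genes tested. The mean level of 2 striatal projection neuron markers, Tac1 and Penk, was 0.32 higher at ZT10 on the log2 scale, with ranges of 7.23 to 8.12 at ZT10 and 7.05 to 7.71 at ZT22 (exact p = 0.0145, adjusted p = 0.174 over 12 measures of the libraries). That of 10 GABAergic neuron markers was 0.17 higher at ZT10, with ranges of 8.46 to 8.96 and 8.25 to 8.84 (exact p = 0.0608, adjusted p = 0.328). Of these 10 markers, 4 had an unadjusted p under 0.05 in limma, all higher at ZT10, and 8 had a positive difference. Among all genes tested, the shares were 3.22% and 50.1%. None of the 10 was called (0). The only leptomeningeal marker tested, Lum, was 0.71 higher at ZT10, with ranges of 5.4 to 7.11 and 3.59 to 6.82 (exact p = 0.0821, adjusted p = 0.328). The lowest values of Lum rest on few reads. The mean of 5 astrocyte markers differed by 0.03 (exact p = 0.689), although 1 of them, Gfap, had 0.45 ± 0.14 (adjusted p = 0.296, limma). The part of these markers in the results below was not tested. In homogenate, fewer cells of a type and less RNA per cell cannot be told apart.

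Few of the transcripts tested differed between late light and late dark. The deposited table held 4484 genes, of which 4070 were tested. Of the genes tested, 7 were called, or 0.172%, that is, had a p in limma under 0.05 after Benjamini-Hochberg adjustment. The 3 that were higher at ZT10 (0.0737% of the genes tested) were the clock repressor gene Nr1d1, the RNA-binding protein gene Hnrnpdl and the mitochondrial enzyme gene Marc2. The 4 that were higher at ZT22 (0.0983%) were the activity-regulated genes Arc and Jun and the ER chaperone genes Hspa5 and Pdia6. At an unadjusted p under 0.05, 310 genes (7.62%) differed, 3.22% of the genes tested being higher at ZT10 and 4.40% higher at ZT22. Differences were small in general: the median size over all genes was 0.09 on the log2 scale, against a median standard error of 0.12, and 2.53% of genes differed by over 0.5. The ZT10 and ZT22 libraries did not overlap for 4 genes (0.0983%), which were Hspa5, Hnrnpdl, Pdia6 and the endosomal regulator gene Zfyve28. Without the 3 libraries whose titles carry serial numbers from 49 to 60, 4 genes were called, Hspa5, Pdia6, Arc and Hnrnpdl. Scaling by library totals, which the noncoding genes dominate, left 0 calls in limma and 38 genes at an unadjusted p under 0.05, while limma voom on recovered reads called 9 genes, with all 7 among them. With libraries of a group that share an animal number taken as a random block, and no run of serial numbers in the fit, 5 genes were called, and Nr1d1 (adjusted p = 0.104) and Marc2 (adjusted p = 0.059) were not (limma).

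**Figure D1:**
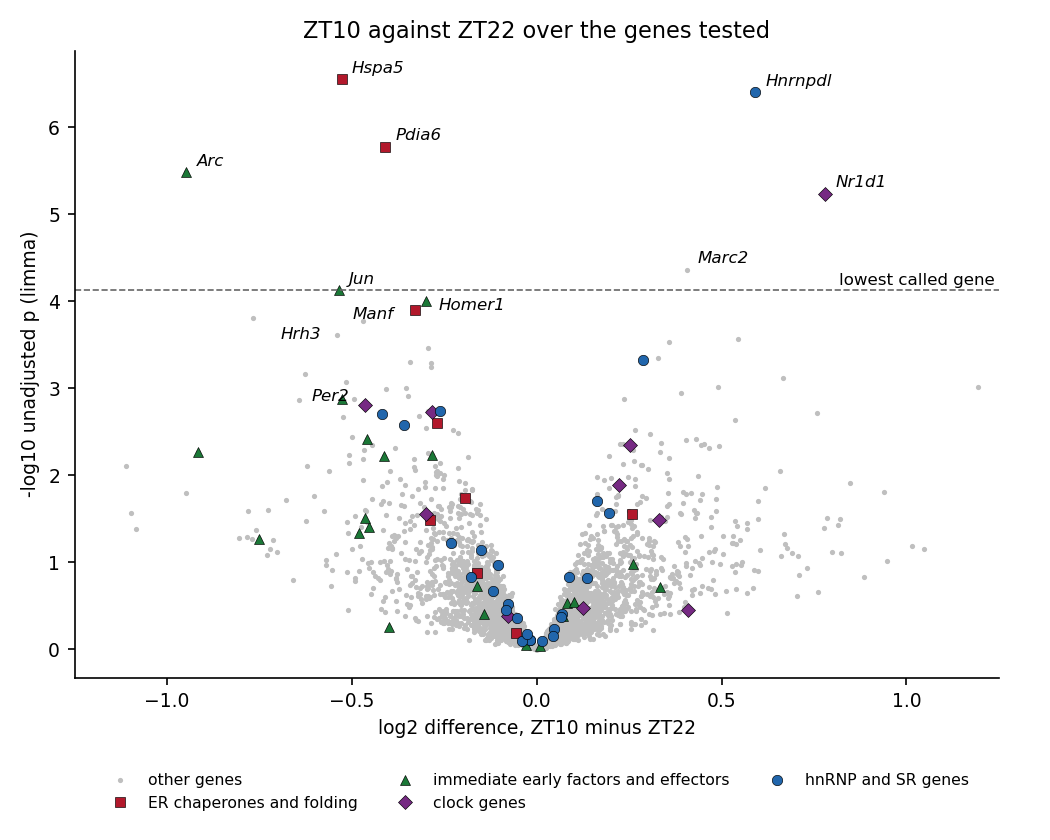
Log2 difference between ZT10 and ZT22 (horizontal axis, positive when higher at ZT10) against −log10 of the unadjusted limma p (vertical axis) for the genes tested, with 4 sets of listed genes marked by colour and shape; 2 genes lie beyond the range plotted. Hspa5, Pdia6 and Arc stand at the upper left and Hnrnpdl and Nr1d1 at the upper right, and the dashed line marks Jun, the called gene with the largest p.

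**Figure D2:**
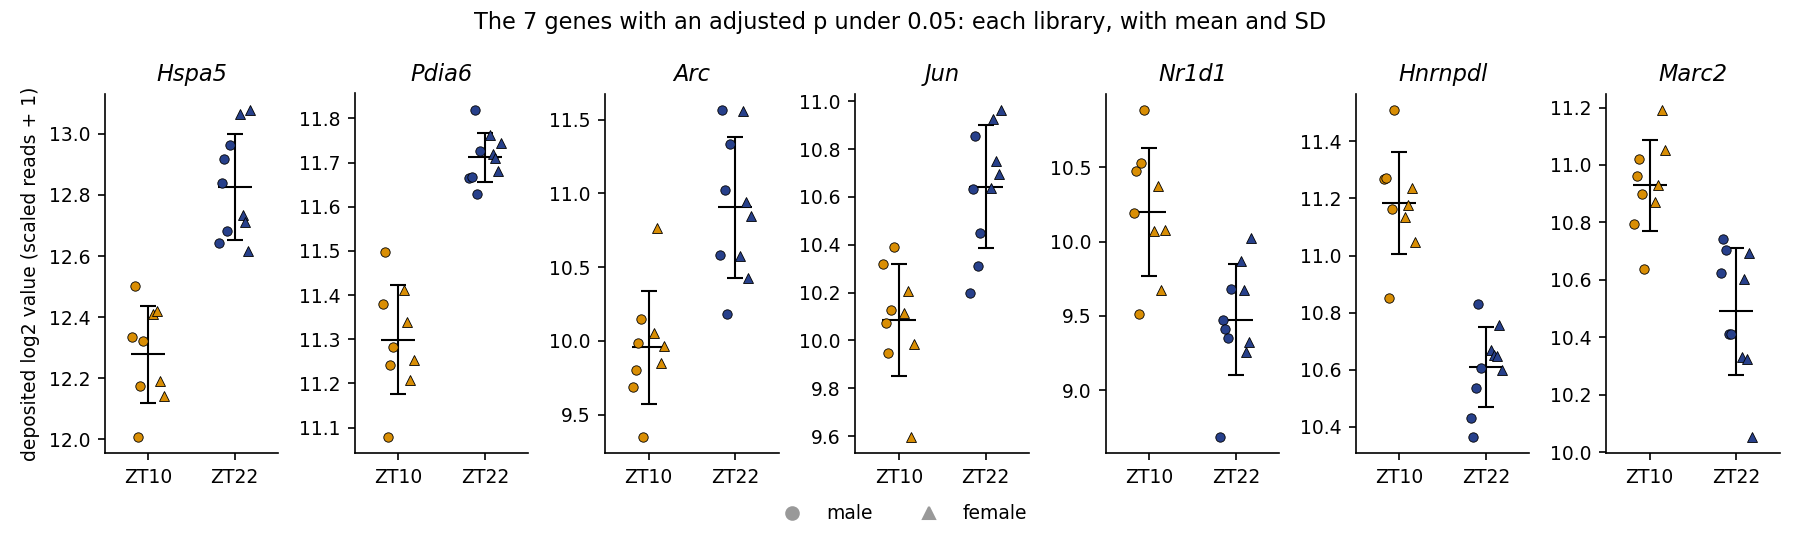
Deposited log2 value of the 7 called genes in each of the 9 ZT10 libraries (orange) and 10 ZT22 libraries (blue), with circles for males, triangles for females, and the mean and SD of each time as bars. The times are fully separate for Hspa5, Pdia6 and Hnrnpdl and overlap for Arc, Jun, Nr1d1 and Marc2.

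The ER chaperone genes Hspa5 and Pdia6 were lower at ZT10 than at ZT22. Hspa5 encodes BiP, the main HSP70 chaperone of the ER lumen (ENSMUSG00000026864, chromosome 2, 34771970 to 34777547 in GRCm38). Its deposited log2 value ran from 12.01 through a median of 12.32 to 12.50 in the ZT10 libraries, and from 12.62 through 12.79 to 13.08 in the ZT22 libraries. Every ZT10 library was thus below every ZT22 library. The difference was -0.53 ± 0.07 (SE), a 1.44-fold lower level at ZT10, with an adjusted p of 0.000804 (limma). Pdia6 encodes a protein disulphide isomerase, an enzyme that forms and rearranges disulphide bonds in folding proteins (ENSMUSG00000020571, chromosome 12, 17266545 to 17284770). It ran from 11.08 through 11.28 to 11.50 at ZT10 and from 11.63 through 11.72 to 11.82 at ZT22, again without overlap. Pdia6 fell by 0.41 ± 0.06 from ZT22 to ZT10 (adjusted p = 0.00226, limma), and the ZT22 libraries lay close together, with an SD of 0.06 against 0.12 at ZT10. Both genes were lower at ZT10 in 9 of the 9 pairs of libraries that share a sex and a run of serial numbers. For these 2 genes that count follows from the lack of overlap and adds nothing to it. Counts of pairs, here and below, describe the libraries and are not a test. Both kept their call when any 1 library was left out, with the largest adjusted p at 0.00798 for Hspa5 and 0.0158 for Pdia6 (limma).

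The list of ER chaperones and folding enzymes named 36 symbols, of which 9 were in the deposited table and were tested. Of these 9 genes, 2 were called and 8, the called ones among them, were lower at ZT10, with a median difference of -0.27. Over all genes tested, 0.172% were called, 2032 of 4070 were lower at ZT10 and the median was 0.00. The list was chosen with earlier results of these data known, so its counts describe the members and are not separate support. Manf, which encodes a secreted ER stress-induced neurotrophic factor, ran from 9.77 through 9.97 to 10.11 at ZT10 and from 9.95 through 10.29 to 10.54 at ZT22. All but 1 of the ZT22 libraries were above the highest ZT10 library, and the difference was -0.33 ± 0.07 (adjusted p = 0.0574, limma). It was called in the fit of all 59 libraries (adjusted p = 0.0212, limma). Pdia3, the disulphide isomerase that works with the lectin chaperones, differed by -0.27 ± 0.08 (adjusted p = 0.23, limma). The values were -0.29 ± 0.13 for the calcium-binding lectin chaperone gene Calr and -0.20 ± 0.08 for the co-chaperone gene Dnajc3, with adjusted p of 0.552 and 0.504 (limma). Txndc5, a thioredoxin-domain isomerase gene, had the opposite sign, 0.26 ± 0.11 (adjusted p = 0.534, limma). The 9 tested genes of unfolded protein response signalling and ER-associated degradation had a median of 0.01. Neither limma nor limma voom called any of them (0 of 9). Of the 9, 3 were lower at ZT10 and 1 reached an unadjusted p under 0.05. Of 7 genes of ER translocation and glycosylation, 0 were called by either tool and 1 had an unadjusted p under 0.05, with a median of -0.03. Among 11 cytosolic and mitochondrial heat shock chaperones, 0 were called by either tool and 3 had an unadjusted p under 0.05, all lower at ZT10. Those were Dnajb1 (-0.21 ± 0.07), Stip1 (-0.20 ± 0.08) and Hsf1, the heat shock factor gene itself (-0.34 ± 0.15), and 10 of the 11 had a negative difference, with a median of -0.11.

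The ER stress response element (ERSE), at which ATF6 binds together with NF-Y, is CCAAT and CCACG separated by 9 bases. It was searched on both strands in RefSeq promoter windows (GRCm38.p6) that reach from 250 bases before to 50 bases after a gene's start site. Of the 9 ER genes tested, 8 had a window, and 4 of these held the element: Hspa5, Pdia6, Calr and Dnajc3. Over all genes with a window it was found in 37 of 27025, or 0.137%. Of the 7 called genes 6 had a window, and Hspa5 and Pdia6 were the 2 with the element. The sites are shown because both called ER genes hold the element. The match used sequence alone, but the windows described were those of called genes and of listed genes. The list was chosen with earlier results of these data known, so these counts are not separate from the expression values. Each line gives 30 bases on the strand of the element, which is in capitals.
Hspa5, chr2:34772020-34772049, plus strand: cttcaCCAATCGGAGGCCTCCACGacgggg
Pdia6, chr12:17266486-17266515, plus strand: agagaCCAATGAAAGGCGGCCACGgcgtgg
Calr, chr8:84847069-84847098, plus strand: tatgggCCAATGAGGGTCGACCACGcgttg
Dnajc3, chr14:118937822-118937851, plus strand: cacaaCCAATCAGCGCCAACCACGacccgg
The element lies on the strand of the gene in Hspa5, Pdia6 and Dnajc3 and on the opposite strand in Calr. In GENCODE release M21, whose Hspa5 transcripts start further upstream than the RefSeq start site, the Hspa5 element falls inside the first exon, and the other 3 lie outside annotated exons. The element was found 65 to 47 bases before the RefSeq start site in Hspa5 and 98 to 80 bases before it in Pdia6. The 206 bases of the Pdia6 window upstream of its first annotated exon, at chr12:17266339-17266544 on the plus strand, show the element with its surroundings.
Pdia6 upstream: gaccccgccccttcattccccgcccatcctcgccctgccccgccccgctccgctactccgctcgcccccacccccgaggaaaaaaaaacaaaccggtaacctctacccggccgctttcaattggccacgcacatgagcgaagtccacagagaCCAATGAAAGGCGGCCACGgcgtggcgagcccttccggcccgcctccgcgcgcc
No window of Pdia3, Cnpy2, Txndc5 or Txndc11, the remaining ER genes with a window, held these letters. The unfolded protein response element (UPRE), also searched, was found in 1 window each of Txndc5 and Txndc11, against 0.714% of all genes. These genes had differences of 0.26 and -0.06. The UPRE was absent from the windows of Hspa5, Pdia6, Calr, Dnajc3, Pdia3 and Cnpy2. A further element searched, ERSE-II, was in no window of these 8 ER genes. A match is a description of the sequence and not evidence of binding.

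**Figure D3:**
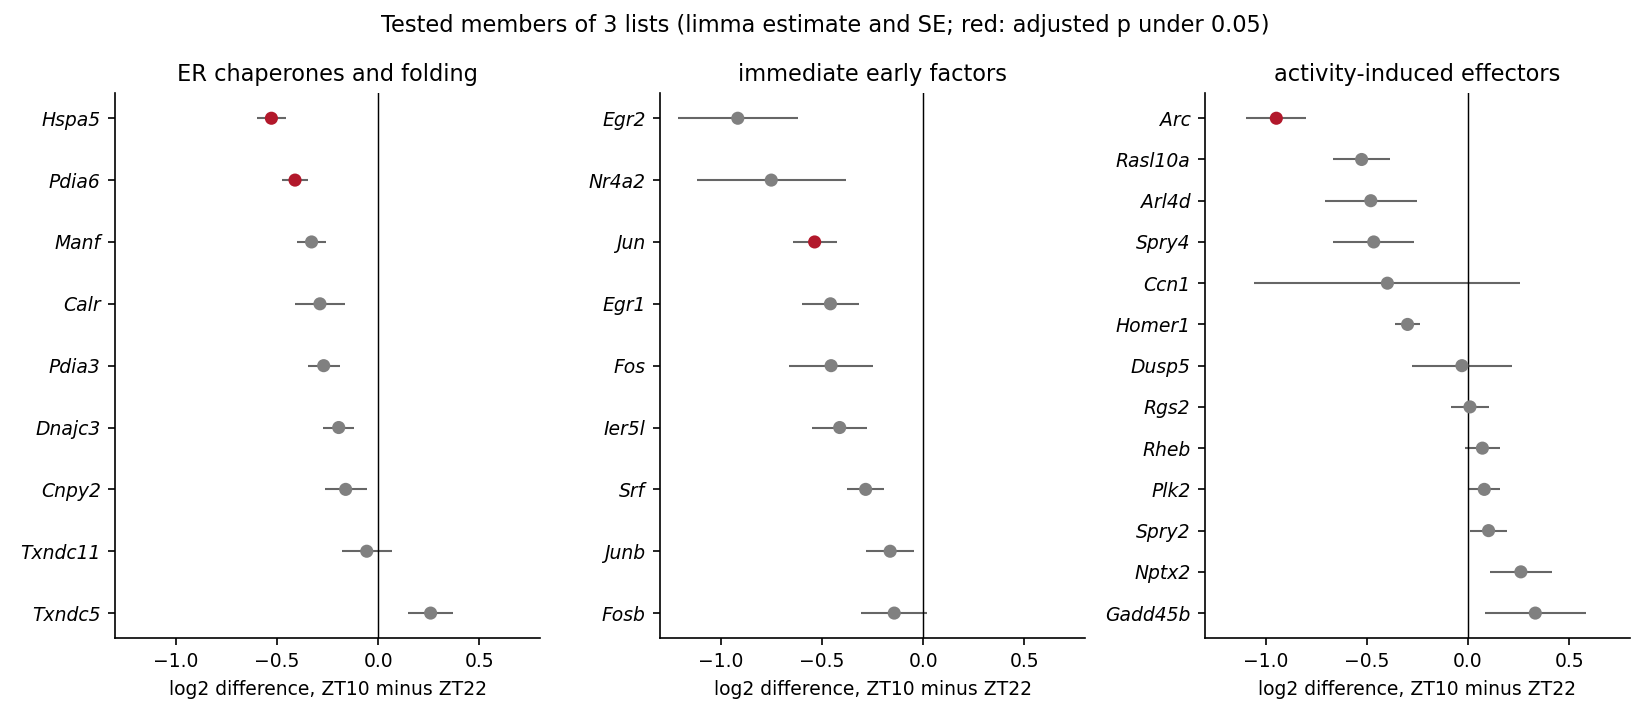
Log2 difference, ZT10 minus ZT22, with its standard error (horizontal axis) for every tested member of the lists of ER chaperones, immediate early transcription factors and activity-induced effectors; red points have an adjusted p under 0.05. In the ER list 8 of 9 members and in the immediate early list 9 of 9 lie to the left of 0, while the effectors spread on both sides. Over all genes tested, 49.9% had a negative difference.

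The activity-regulated genes Arc and Jun were also lower late in the light phase. Arc encodes a cytoskeletal protein that regulates AMPA receptor trafficking at synapses (ENSMUSG00000022602, chromosome 15, 74669083 to 74672570). Its log2 value ran from 9.35 through 9.96 to 10.77 at ZT10 and from 10.18 through 10.90 to 11.57 at ZT22. The times overlapped, though 8 of the 9 ZT10 libraries were below the lowest ZT22 library. Arc differed by -0.95 ± 0.15, a 1.93-fold lower level at ZT10 (adjusted p = 0.00336, limma), and was lower at ZT10 in 9 of 9 pairs. Jun, which encodes the leucine zipper partner of FOS proteins in AP-1 (ENSMUSG00000052684, chromosome 4, 95049034 to 95052222), ran from 9.60 through 10.12 to 10.39 at ZT10 and from 10.20 through 10.67 to 10.96 at ZT22. Of the ZT22 libraries 8 were above every ZT10 library, and Jun was lower at ZT10 in 8 of 9 pairs. Its difference was -0.54 ± 0.11 (adjusted p = 0.0436, limma). The call for Jun ended without 16 of the 19 libraries taken 1 at a time, the largest adjusted p being 0.112, and held only without ZT10 male replicate 1, ZT22 male replicate 1 or ZT22 male replicate 5. Of the exonic bases of Jun, 7.28% are shared with the antisense gene Junos, and the strand setting of the counting is not given in the sources used here.

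Each of the 9 tested immediate early transcription factor genes had a negative difference, with a median of -0.45, and Jun alone was called. Over all genes tested, 49.9% had a negative difference and 0.172% were called. Egr1, a zinc finger factor induced by synaptic activity, had -0.46 ± 0.14 (adjusted p = 0.292), and Egr2 had -0.92 ± 0.30 (0.324). Srf, the serum response factor gene that acts upstream of the others, had -0.28 ± 0.09 (0.328), all by limma. Of 13 tested activity-induced effectors, Arc alone was called, 7 were lower at ZT10 and the median was -0.03. Homer1, which encodes a scaffold of metabotropic glutamate receptors (ENSMUSG00000007617, chromosome 13, 93299635 to 93405129), ran from 12.41 through 12.91 to 13.22 at ZT10 and from 12.95 through 13.22 to 13.37 at ZT22. The ranges overlapped, and Homer1 was lower at ZT10 in 9 of 9 pairs. Its difference of -0.30 ± 0.06 had an adjusted p of 0.051 (limma). It was called without ZT10 male replicate 3, ZT10 female replicate 1 or ZT22 male replicate 1, and with limma voom (adjusted p = 0.0355). The table has 1 value per gene, so the short activity-induced Homer1 transcripts cannot be told from the long ones. Rasl10a, a RAS-like GTPase gene, had -0.53 ± 0.14 (adjusted p = 0.168, limma).

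Among clock genes, Nr1d1 was higher at ZT10. Nr1d1 encodes REV-ERBα, a haem-binding repressor of Bmal1 transcription (ENSMUSG00000020889, chromosome 11, 98767932 to 98775333). It ran from 9.51 through 10.19 to 10.89 at ZT10 and from 8.69 through 9.44 to 10.03 at ZT22. The ranges overlapped, with 7 of the 9 ZT10 libraries above the highest ZT22 library. Its difference was 0.78 ± 0.13, a 1.72-fold higher level (adjusted p = 0.00472, limma), and it was higher at ZT10 in 9 of 9 pairs. The call ended without the 3 libraries numbered 49 to 60 (0.73, adjusted p = 0.0633, limma) and in a fit without the run of serial numbers (adjusted p = 0.119, limma). The Nr1d1 transcript shares 263 of its 3077 exonic bases with Thra on the other strand. Nr1d2, which encodes the related REV-ERBβ, was higher at ZT10 in 8 of 9 pairs, with a difference of 0.25 ± 0.08 (adjusted p = 0.296, limma).

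The deposited table held 4 of 12 listed clock repressor symbols, 4 of 11 activator and REV-ERB/ROR symbols and 2 of 12 output symbols. Bmal1, Clock, Cry1, Cry2 and Dbp were absent from it. Of the 10 clock and clock output genes tested, Nr1d1 was the 1 called. Per2 ran from 7.66 through 8.42 to 8.88 at ZT10 and from 8.47 through 8.88 to 9.18 at ZT22, with a difference of -0.46 ± 0.13 (adjusted p = 0.186, limma). Per1 had the opposite sign, 0.22 ± 0.08 (adjusted p = 0.442, limma), and was higher at ZT10 in 9 of 9 pairs by 0.01 to 0.43. Per1 and Per2 encode the repressors that close the clock's feedback loop, and their differences lay on opposite sides of 0, although neither passed. Per3 had -0.30 ± 0.13 and the PAR leucine zipper gene Hlf -0.28 ± 0.08, with adjusted p of 0.534 and 0.202 (limma). Further values were 0.12 ± 0.13 for Rora, 0.41 ± 0.43 for the Bmal1 relative Arntl2 and 0.33 ± 0.14 for Coq10b, none of which passed. Arntl2 was at 2.43 in ZT22 male replicate 4, a value near the floor. In the promoter windows of the clock genes, the E-box CACGTG at which CLOCK and BMAL1 bind was found in Per1 and Coq10b, against 8.09% of all genes. Another window of Per1 lacked it. The D-box, TTATGTAA or TTACGTAA on either strand, was found in Per3 and Coq10b, against 1.23% of all genes. The windows of the called gene Nr1d1 and of Nr1d2, Rora, Arntl2 and Hlf held neither element.

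**Figure D4:**
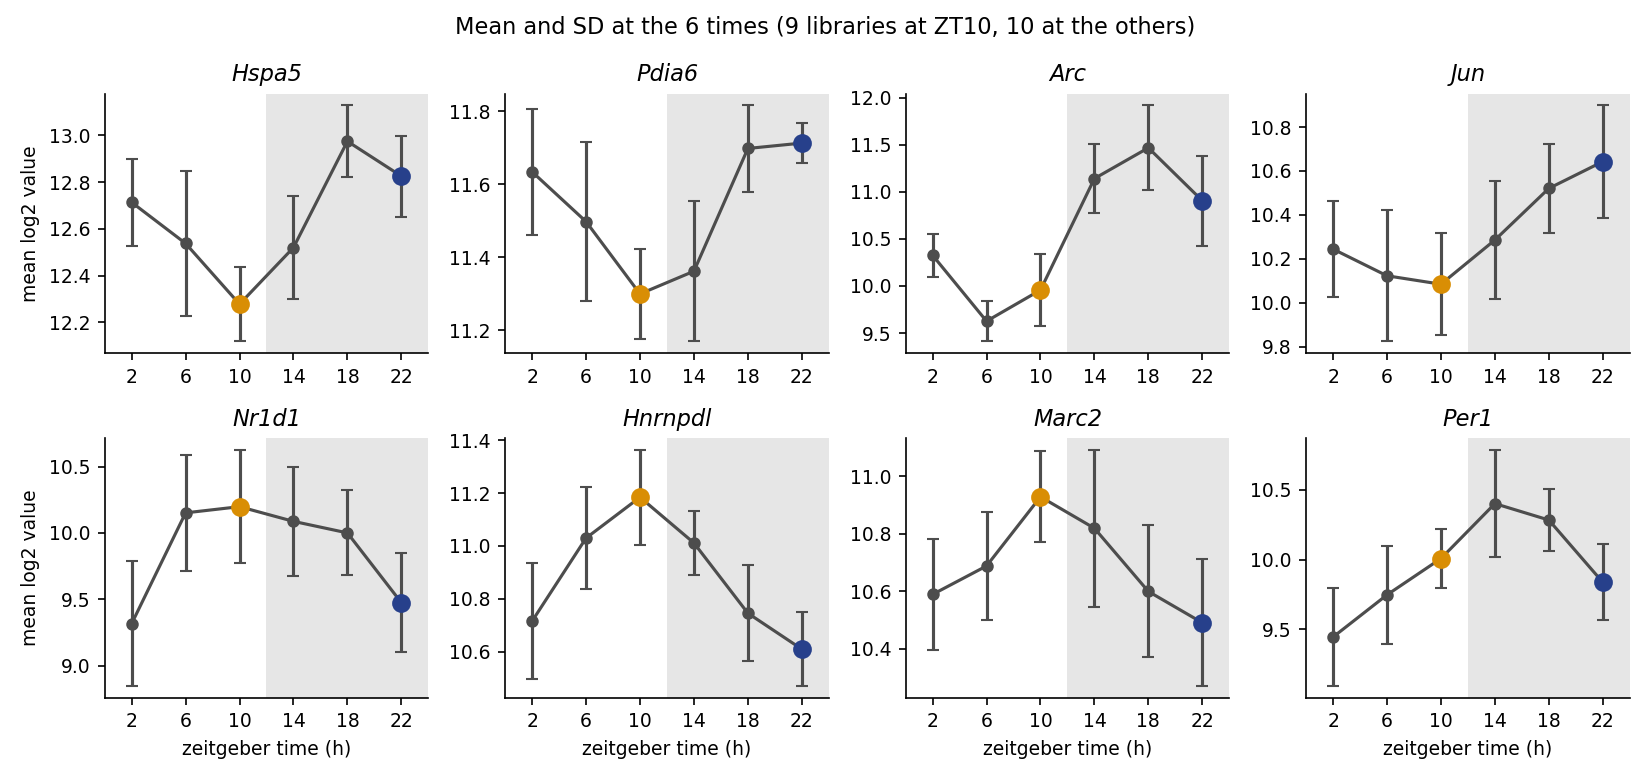
Mean deposited log2 value with SD (vertical axis) at each of the 6 zeitgeber times (horizontal axis, hours) for the 7 called genes and Per1, from 9 libraries at ZT10 (orange) and 10 at each other time (ZT22 in blue); the grey band is the dark phase by convention. ZT10 is the lowest time for Hspa5, Pdia6 and Jun and the highest for Nr1d1, Hnrnpdl and Marc2, while Arc is lower at ZT6 than at ZT10.

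Among genes of RNA-binding proteins, Hnrnpdl was higher at ZT10. It encodes an hnRNP that binds AU-rich RNA and regulates splicing (ENSMUSG00000029328, chromosome 5, 100033577 to 100039664). Its log2 value ran from 10.85 through 11.18 to 11.51 at ZT10 and from 10.36 through 10.63 to 10.83 at ZT22. Every ZT10 library was above every ZT22 library, so all 9 pairs necessarily had the higher value at ZT10. Its difference was 0.59 ± 0.08, a 1.51-fold higher level at ZT10 (adjusted p = 0.000804, limma), and the call held when any 1 library was left out. In the list of 10 tested hnRNP genes, 1 was called, 7 were higher at ZT10 and the median was 0.08. Over all genes tested, 50.1% had a positive and 49.9% a negative difference. Of 16 SR and related splicing factor genes 12 had a negative difference, and the median was -0.09. Neither limma nor limma voom called any (0 of 16), and 3 reached an unadjusted p under 0.05: Srsf10 (-0.42 ± 0.12), Tra2a (-0.36 ± 0.11) and Srsf2 (-0.26 ± 0.07). Srsf2 shares 15.55% of its exonic bases with Mettl23 and 9.74% with Mfsd11, both on the other strand.

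Marc2, also named Mtarc2, encodes a molybdenum enzyme of the mitochondrial outer membrane (ENSMUSG00000073481, chromosome 1, 184813068 to 184846451). It ran from 10.64 through 10.93 to 11.19 at ZT10 and from 10.05 through 10.51 to 10.74 at ZT22. Of the ZT10 libraries 8 were above the highest ZT22 library, and 9 of 9 pairs were higher at ZT10. The difference was 0.41 ± 0.08 (adjusted p = 0.0293, limma). This call ended (largest adjusted p 0.107) without any 1 of 9 libraries: ZT10 male replicate 5, ZT10 female replicates 1, 2, 3 and 4, ZT22 male replicate 4, and ZT22 female replicates 1, 3 and 5. It also ended without the 3 libraries numbered 49 to 60 (0.41, adjusted p = 0.0989, limma) and in a fit without the run of serial numbers (adjusted p = 0.0655, limma).

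Receptor genes for monoamines, histamine and acetylcholine were not called with all 19 libraries, and all 7 tested had a negative difference, with a median of -0.10. The calls were 0 of 7 in both limma and limma voom, and 2 reached an unadjusted p under 0.05. Over all genes tested, 49.9% had a negative difference and 7.62% reached an unadjusted p under 0.05. Hrh3, the presynaptic histamine H3 autoreceptor and heteroreceptor gene, ran from 8.96 through 9.43 to 9.99 at ZT10 and from 9.48 through 10.13 to 10.40 at ZT22. The ranges overlapped, and the difference was -0.54 ± 0.12 (adjusted p = 0.0836, limma). Hrh3 was called without ZT22 male replicate 1, ZT22 male replicate 5 or ZT22 female replicate 2, with an adjusted p down to 0.00965 (limma). Htr1b, a serotonin autoreceptor gene, had -0.50 ± 0.13 (adjusted p = 0.168, limma). Both share exonic bases with an antisense gene, 11.1% of those of Hrh3 and 18.04% of those of Htr1b. Of 9 tested genes of neuropeptides and their processing, limma and limma voom called 0, 3 reached an unadjusted p under 0.05, 6 had a positive difference, and the median was 0.09. The vasoactive intestinal peptide gene Vip had 0.27 ± 0.10 and the corticotropin-releasing hormone gene Crh 0.79 ± 0.34, with adjusted p of 0.413 and 0.545 (limma). Crh was at 4.07 and 3.73 in ZT22 female replicates 4 and 5, values that rest on few reads. The neuropeptide Y gene Npy had -0.19 ± 0.18 (adjusted p = 0.899, limma). All 3 of these genes are among the 10 GABAergic markers, whose mean was 0.17 higher at ZT10 as given above. Gene groups of general metabolism had medians near 0: 0.03 for 18 nuclear respiratory chain genes, 0.01 for 29 cytosolic ribosomal protein genes, 0.00 for 12 cholesterol synthesis genes and 0.05 for 11 glycolysis genes. In these lists limma and limma voom each called 0 genes, and the 5 that reached an unadjusted p under 0.05 were all higher at ZT10.

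The comparison was then made within each sex. In males 4 genes passed (0.0983%, limma) and 242 had an unadjusted p under 0.05. They were Arc (-1.15), Nr1d1 (1.0), Hnrnpdl (0.66) and Hspa5 (-0.54), with adjusted p between 0.0165 and 0.0306. In females 0 genes passed in limma, with 195 at an unadjusted p under 0.05 and a smallest adjusted p of 0.122. The female differences of the same genes were -0.72 for Arc, 0.53 for Nr1d1, 0.51 for Hnrnpdl and -0.51 for Hspa5. The test of the difference between the sexes called 0 genes in limma, with 3.05% of genes at an unadjusted p under 0.05 and a smallest adjusted p of 0.999. Hspa5 differed by -0.54 ± 0.10 in males and -0.51 ± 0.11 in females, and Pdia6 by -0.41 ± 0.09 and -0.42 ± 0.09. The male count fell to 0 without ZT10 male replicate 1, 2 or 5 or ZT22 male replicate 2 or 5, to 1 without ZT10 male replicate 4, and to 0 without the libraries numbered 49 to 60. In females Jun was called without ZT22 male replicate 1 or 3, which share the estimate of the spread.

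Over the 6 times of day, ZT10 was the lowest or highest time for 6 of the 7 called genes. The genes were chosen by their ZT10 and ZT22 values, which enter this ranking, so it is not separate support. The share of all genes with ZT10 as the lowest or highest time was not counted. Hspa5 averaged 12.28 ± 0.16 at ZT10 (SD, n = 9), 12.97 ± 0.15 at ZT18 and 12.83 ± 0.17 at ZT22 (SD, n = 10 each), so its highest mean was at ZT18. Arc averaged 9.63 ± 0.22 at ZT6, 9.96 ± 0.39 at ZT10, 11.47 ± 0.45 at ZT18 and 10.90 ± 0.48 at ZT22. ZT10 and ZT22 thus spanned less than the full daily range of Arc. Nr1d1 averaged 10.20 ± 0.43 at ZT10, 9.48 ± 0.37 at ZT22 and 9.32 ± 0.47 at ZT2, and Hnrnpdl fell from 11.18 ± 0.18 at ZT10 to 10.61 ± 0.14 at ZT22.

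To ask where the late pair of times differs from other pairs 12 h apart, its difference was set against those of ZT2 minus ZT14 and ZT6 minus ZT18, which share no library with it, in a fit of all 59 libraries. Against ZT6 minus ZT18, 0 genes passed in limma, with 201 at an unadjusted p under 0.05 and a smallest adjusted p of 0.116. Against ZT2 minus ZT14, 62 genes passed (1.52%), 31 with the higher difference in the late pair and 31 with the lower. In 59 of the 62 the sign was opposite in the pairs. For this count the late difference came from the fit of 19 libraries and the early one from the fit of all 59. A large difference between the pairs is more easily reached with opposite signs, so this share is partly set by the test. In the fit of all 59 libraries, Nr1d1 differed by 0.76 ± 0.15 between ZT10 and ZT22 and by -0.77 between ZT2 and ZT14. The difference between its pairs was 1.53 ± 0.21. For Per1 the late pair gave 0.21 ± 0.12 and the early pair -0.96, and the difference was 1.17 ± 0.17. Pdia6 gave -0.42 ± 0.07 and 0.27, with a difference of -0.69 ± 0.10. Of the 7 called genes, 6 were among the 62. The 7 genes were chosen by the late difference, which is part of the quantity tested, so this overlap is not separate support. Arc was not among the 62: it was lower at the light-phase time of both pairs, with -0.94 ± 0.16 in the late pair and -0.81 in the early pair. The clock gene Per2 likewise had the same sign in both, -0.48 ± 0.16 and -0.69. The count of 62 fell to 27 without the libraries numbered 49 to 60 and to 41 without ZT22 female replicate 4.

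**Figure D5:**
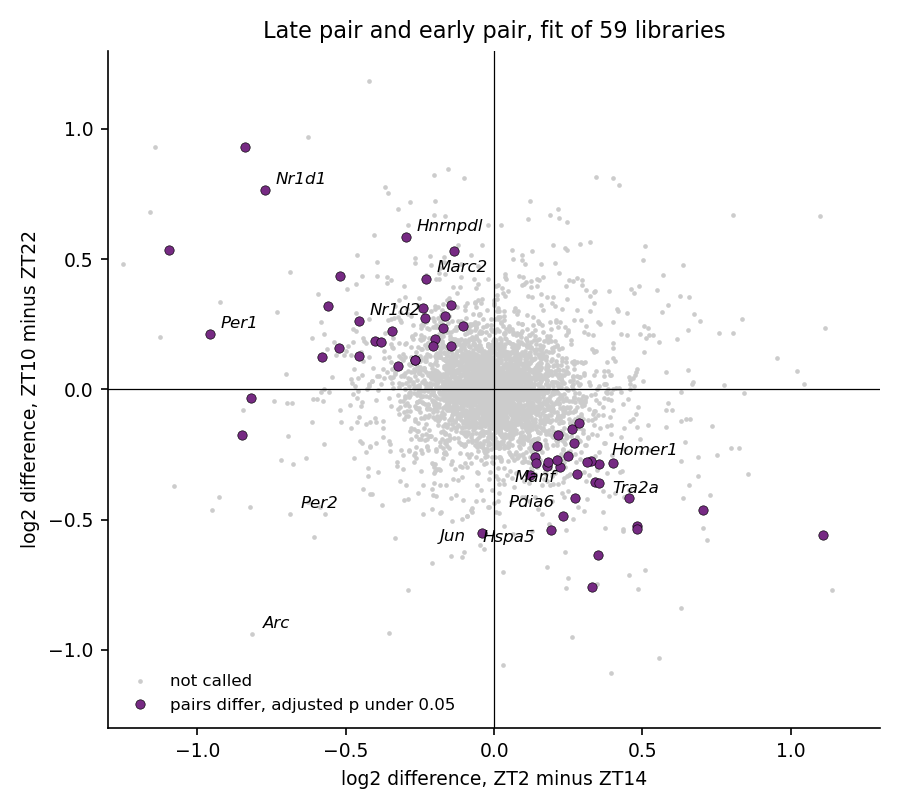
Log2 difference ZT2 minus ZT14 (horizontal axis) against ZT10 minus ZT22 (vertical axis) for each gene in the fit of 59 libraries, with genes whose pairs differed at an adjusted p under 0.05 in purple; 1 of the 62 such genes and 1 other gene lie beyond the range of 1.3. Most of the purple genes lie in the upper left and lower right, and Arc and Per2 are negative on both axes.

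With all 59 libraries in the fit, which estimates the spread from every time, 18 genes were called between ZT10 and ZT22 (0.442%), 7 higher at ZT10 and 11 higher at ZT22, and all 7 genes above were among them. Of the 11 further genes, those given here were named after their values were seen except where a rule named them, and they included Manf, Pdia3 and Htr1b. The sialyltransferase gene St3gal5, whose enzyme makes the ganglioside GM3, was higher at ZT10 by 0.24 ± 0.06, and the inositol hexakisphosphate kinase gene Ip6k1 was lower by -0.30 ± 0.06. The quinone reductase gene Nqo2 had -0.76 ± 0.17, the tyrosylprotein sulphotransferase gene Tpst2 0.53 ± 0.12 and Vwc2l -0.64 ± 0.16. Zfyve28 had 0.32 ± 0.08 and Fgfr1op2 -0.27 ± 0.07. The adjusted p of these 11 genes lay between 0.0118 and 0.0434 (limma). Nqo2 shares 18.85% of its exonic bases with Serpinb6a on the other strand, and Ip6k1 shares 14.52% with Gm20662 on the same strand.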

How the data were processed

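RNA was sequenced from homogenate medial prefrontal cortex. The labels' protocols name the RNeasy Plus Micro kit (Qiagen) for extraction and a SMART Stranded Total RNA kit (Takara) for libraries. The submitters' processing notes name FastQC, HTSeq, DESeq2 and the build GRCm38. The aligner, annotation release, versions and strand setting are not given in the sources used here. The table, although its name speaks of raw counts, holds log2 values that the authors deposited: by its steps, scaled reads with 1 added. Whole reads were recovered from the value of 1 read in each library, within 0.000165 of a whole number for values of up to 100000 reads, and served for depth, filters and alternatives.

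Of 4484 genes in the table, 4465 had a symbol in GENCODE M21, and 4070 had at least 10 recovered reads in at least 9 of the 19 libraries and were tested. Limma 3.58.1 in R 4.3.3 was fitted to the deposited log2 values with an intensity trend and robust variances, with sex and the run of 12 serial numbers as covariates, and a gene was called at a Benjamini-Hochberg adjusted p under 0.05, taken over every gene tested. A count model had been planned only for a table of whole counts. The within-sex and pair comparisons used a time by sex model and a model of all 12 groups. Library measures were compared with exact permutation tests. The fit was tested on simulated data. The members of the comparison and the gene lists were chosen with earlier results of these data known. Genes named were all tested clock genes, all called genes with a mean log2 value of at least 5, up to 4 genes of smallest p in each other list, and up to 5 per direction for each comparison of pairs; predicted genes were passed over, and some genes that the rule or a call would name are not reported here. Calr, Dnajc3, Txndc5, Gfap, Lum and the genes called only with 59 libraries were named after their values were seen.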

Additional observations from a re-analysis of the deposited data

Results flagged for a closer look

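Of 94 sets of values, from named genes at ZT10 and at ZT22, 3 held a library far from the others by Dixon's criterion, which chance exceeds in about 1 in 20 sets. Homer1 was at 12.4 in ZT10 male replicate 5, against 12.8 in the next lowest library. Per3 was at 7.87 in ZT10 female replicate 1, against 8.58 in the next. Tac1, a tachykinin gene also counted among the striatal markers, was at 5.83 in ZT22 male replicate 2, against 6.52.

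Of the 62 genes whose ZT10 minus ZT22 difference was itself different from the ZT2 minus ZT14 difference (limma, adjusted p under 0.05 for the difference of the pairs), 23 are named here. The late pair had the higher difference by 1.53 for Nr1d1, 1.17 for Per1, 0.88 for Hnrnpdl, 0.72 for Nr1d2, 0.67 for Tpst2, 0.66 for Marc2, 0.47 for Zfyve28 and 0.41 for St3gal5. Among ER genes it had the lower difference, with -0.73 for Hspa5, -0.69 for Pdia6, -0.69 for Calr, -0.61 for Manf and -0.43 for Pdia3. Among activity-regulated genes the values were -1.01 for Rasl10a, -0.64 for Homer1, -0.60 for Srf and -0.51 for Jun. The splicing factor genes Tra2a and Srsf2 had -0.71 and -0.40. The remaining values were -1.09 for Nqo2, -0.99 for Vwc2l, -0.72 for Htr1b and -0.47 for Ip6k1.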

How the results depend on the processing

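The count of 7 called genes rose to 13 with the replicate block as a random effect, to 18 with all 59 libraries in the fit and to 90 with the first 2 principal components as covariates, and each of these sets held all 7 genes. It fell to 4 without the libraries numbered 49 to 60 and to 0 under scaling by library totals, where the 7 differences kept their direction, such as -0.55 for Hspa5, 0.56 for Hnrnpdl and -0.95 for Arc. With no replicate block it was 5, and same-run libraries did not pair clearly (mean correlation of deviations 0.09 over 27 pairs, against -0.02 over pairs of other runs). Leaving out each library in turn gave 5 to 10 calls. The male count of 4 became 1 with no replicate block and 0 without the libraries numbered 49 to 60, with 0 to 5 over single libraries left out. The female count of 0 became 1 (Jun) with all 59 libraries and ranged from 0 to 1, and that against ZT6 minus ZT18 from 0 to 1. The count of 62 against ZT2 minus ZT14 became 35 with no replicate block and 27 without the libraries numbered 49 to 60, with 41 to 75 over single libraries. Without those libraries the difference between times turned sign for reads of other genes (86540), the first component (-0.12), and the glutamatergic (0.021), oligodendrocyte (0.027) and oligodendrocyte precursor (-0.070) markers, none of which passed. The causes were not tested. Detection against depth, which was 1009789 to 2544097 reads outside the noncoding genes, was not tested.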
